A study of Mus musculus with 6 samples.

Results

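A set of 10 genes that shape the microtubules of young neurons were followed in nuclear RNA: the doublecortin family (Dcx, Dclk1, Dclk2), the stathmins (Stmn1, Stmn2, Stmn3, Stmn4), the neuronal beta-tubulin Tubb3, tau (Mapt) and Map2. They were chosen by gene symbol, and all 10 were found among the 23337 gene rows, Map2 under its older symbol Mtap2. Of these, 9 passed the filter on low counts and were tested with 13925 genes in all, and Stmn2 did not pass. The cells were mouse neural precursors taken from the E13.5 (embryonic day) forebrain and kept dividing at passage 6 to 7 with EGF and bFGF at 20 ng/ml each. There were 3 lines labelled Fmr1 WT (lines 3, 8 and 19) and 3 labelled Fmr1 KO (lines 3, 13 and 16), which the series' design text calls independent. The sources used here do not give the knockout allele, the strain or whether lines came from separate embryos. If lines shared an origin, p-values measure only the spread between these cultures. RNA came from nuclei alone, and preparations were kept where RT-qPCR found the nuclear U1 RNA high and beta-actin mRNA low, so the values are nuclear levels and not the levels of the whole cell. In such bulk samples, fewer cells of a type and less RNA per cell cannot be told apart.

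Doublecortin binds and stabilises microtubules in migrating newborn neurons, and its 2 relatives join doublecortin domains to a protein kinase domain. Stathmins work in the opposite sense: they hold free tubulin and favour the shortening of microtubules. Stmn1 is common in dividing cells, whereas Stmn2, Stmn3 and Stmn4 carry a membrane-anchoring extension and are known from neurons. Tau and MAP2 coat the microtubules of axons and of dendrites, and Tubb3 is widely used to stain newly formed neurons. Fmr1 encodes FMRP, an RNA-binding protein whose known targets include the microtubule gene Map1b.

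The libraries held 18702738 to 26789522 counts, and values are given as CPM (counts scaled to library size) on the scale of the trimmed mean of M values (TMM), on which 1 count was worth 0.0366 to 0.0542 CPM. Fmr1 itself was at 223 to 274 CPM in WT and at 188 and 153 CPM in KO lines 13 and 16, but at 371 CPM in the library labelled KO line 3. Fmr1 RNA in that library was thus above every WT library. Between the groups Fmr1 did not pass (log2 fold change -0.10, edgeR adjusted p = 0.795). The knockout allele is not known here, so Fmr1 RNA cannot settle the label of any line. Every direction below rests on the labels as they stand. In raw counts, the library labelled KO line 3 and WT line 19 stood apart from their groups. Their chi-square against their replicates was 61.3 to 91.5 per degree of freedom, against 10.8 and 16.4 for the other pairs within a genotype. It sums raw counts over genes, so very abundant RNAs weigh heavily in it. Rn45s, such an RNA, was at 18739 CPM in WT line 19 and at 1078 to 2568 CPM in the other libraries. Neural stem cell identity was visible in all 6 libraries: Vim and Nes, intermediate filaments of radial glia, were at 1503 CPM or above. Xist, the RNA of the inactive X chromosome, also enters that chi-square. It was at 15465 and 18433 CPM in WT lines 3 and 8 and at 20508 CPM in the library labelled KO line 3. The other 3 libraries were at 1.67 to 81.8 CPM. The chi-square was not computed without Xist and Rn45s.

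The 10 genes did not move as a block. Of the 9 tested members, 5 rose in the libraries labelled KO (Dcx, Stmn3, Dclk2, Map2, Stmn1), 2 fell (Stmn4, Dclk1) and 2 did not pass (Tubb3, Mapt). Over all tested genes, 42.3% were called, 21.8% higher and 20.4% lower (edgeR's quasi-likelihood test, Benjamini-Hochberg adjusted p under 0.05). In 7 of the 9 members the ranges of the groups lay apart, as in 54.3% of all tested genes. The median log2 fold change of the 9 was 0.47, beside 0.01 over all tested genes. Without WT line 19 and the library labelled KO line 3 together, 4 members were called higher and 2 lower, and the call of Map2 was lost. Calls over all genes rose in that setting, from 5884 of 13925 (42.3%) to 7625 of 14077 (54.2%), with 25.9% higher. Counts given below without that pair are to be read against these shares. The libraries left were WT lines 3 and 8, high in Xist, and KO lines 13 and 16, low in Xist. Genotype and Xist state therefore cannot be told apart in any count without that pair.

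**Figure D1:**
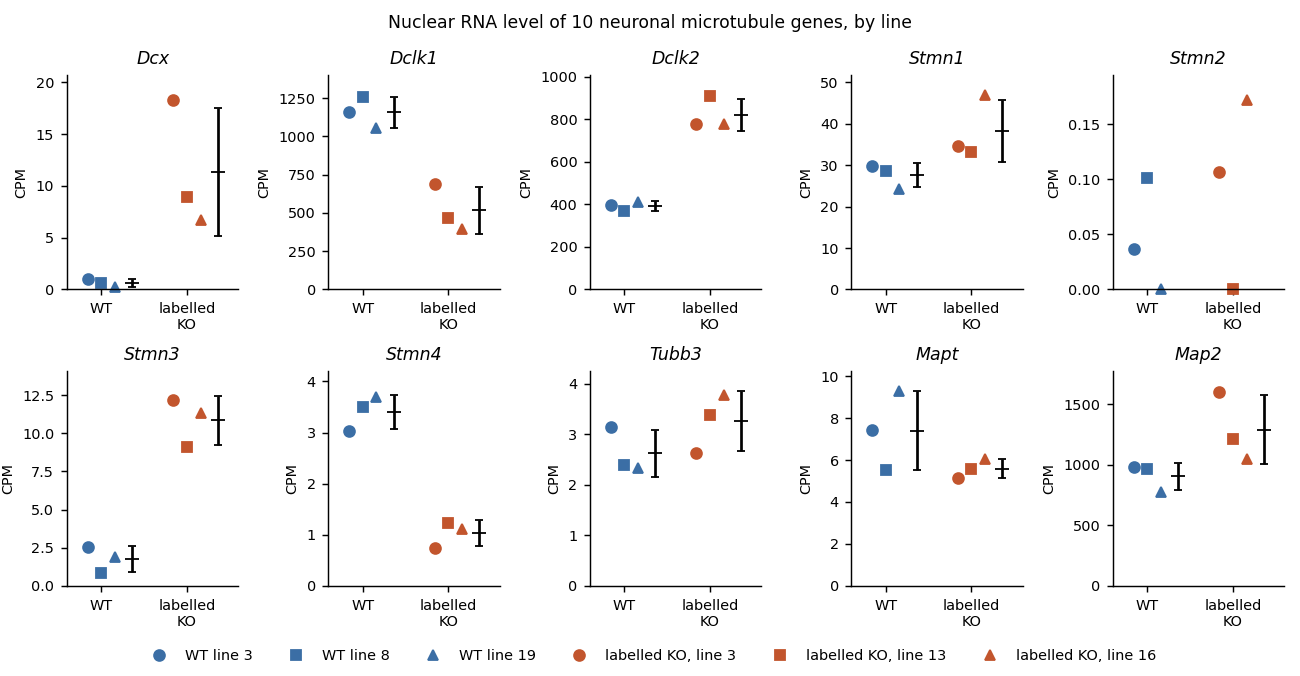
Level of each of the 10 genes in CPM (vertical axes start at 0 and differ between panels) in the 3 WT lines and the 3 lines labelled KO; each symbol is 1 library, and the bar at the right of a group is its mean with the SD, left out for Stmn2 because it was not tested. The groups lie apart for Dcx, Dclk1, Dclk2, Stmn1, Stmn3, Stmn4 and Map2, and overlap for Stmn2, Tubb3 and Mapt.

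The sequences just upstream of the starts of Dcx, Dclk1, Dclk2 and Stmn3 are shown because these 4 include the largest rises and the family pair that moved in opposite directions. They come from RefSeq (GRCm38.p6, 5′ to 3′), of which 6 of the 10 genes had an entry, and were cut to the bases upstream of both the RefSeq and the GENCODE start. Capitals mark CpG dinucleotides.
Dcx, chrX:143933312-143933469, minus strand: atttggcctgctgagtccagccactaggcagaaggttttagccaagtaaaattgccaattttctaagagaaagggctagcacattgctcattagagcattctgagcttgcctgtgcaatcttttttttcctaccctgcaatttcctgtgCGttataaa
Stmn3, chr2:181314501-181314750, minus strand: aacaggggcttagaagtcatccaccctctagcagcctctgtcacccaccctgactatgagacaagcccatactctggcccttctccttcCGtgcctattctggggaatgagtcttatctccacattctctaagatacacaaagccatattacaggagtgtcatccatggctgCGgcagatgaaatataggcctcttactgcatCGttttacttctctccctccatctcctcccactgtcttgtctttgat
Dclk2, chr3:86920885-86921134, minus strand: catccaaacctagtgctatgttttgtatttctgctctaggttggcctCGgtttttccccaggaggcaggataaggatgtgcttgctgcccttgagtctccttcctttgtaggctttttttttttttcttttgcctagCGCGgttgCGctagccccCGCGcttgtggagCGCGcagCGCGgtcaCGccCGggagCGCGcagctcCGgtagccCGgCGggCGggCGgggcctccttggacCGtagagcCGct
Dclk1, chr3:55242114-55242363, plus strand: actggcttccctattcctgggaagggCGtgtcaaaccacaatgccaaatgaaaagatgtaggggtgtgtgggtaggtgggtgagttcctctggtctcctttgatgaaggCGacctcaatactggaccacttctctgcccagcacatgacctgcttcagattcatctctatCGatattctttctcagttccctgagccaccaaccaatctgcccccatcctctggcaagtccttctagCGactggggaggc

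In windows of 300 bases around the start, the 2 genes with the largest rises, Dcx and Stmn3, held 3 and 6 CpG dinucleotides, against 27 for Dclk2, 5 for the upstream start of Dclk1, 26 for Tubb3 and 37 for Map2. The median over 32841 such windows was 7, with quartiles at 3 and 20. Both strands were also searched for short motifs, among them versions of the E-box that proneural factors are known to bind. Of the members with an entry, only Stmn3 held the E-box CAGATG, which is in 17.2% of all windows. No member held the E-box CAGCTG, which is in 16.3% of them. The letters TATAAA were in the windows of Dcx only, where they end the printed stretch, and in 13.6% of all windows. The general E-box CANNTG, which includes both versions, was found for Stmn3 and Dclk1 and not for Dcx, Dclk2, Tubb3 or Map2, beside 72.3% of all windows. These are matches of letters in a short window and say nothing of binding.

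Dcx (ENSMUSG00000031285.14, chromosome X, 143855842 to 143933311 in GRCm38, minus strand) showed the largest difference of the members. It was at 0.988, 0.659 and 0.271 CPM in WT lines 3, 8 and 19, which rests on 27, 13 and 5 counts. In the library labelled KO line 3 it was at 18.3 CPM, and in KO lines 13 and 16 at 8.92 and 6.74 CPM, or 342, 211 and 157 counts. The lowest KO-labelled library thus lay well above the highest WT library, and the KO-labelled libraries differed among themselves more than they did for Stmn3. Means were 0.639 ± 0.359 CPM in WT and 11.3 ± 6.13 CPM in the KO-labelled group (SD, n = 3 each), 17.7-fold apart. The log2 fold change was 4.06 (SE 0.49, edgeR adjusted p = 3.19e-04). It was 3.21 (edgeR adjusted p = 4.11e-08) without WT line 19 and the library labelled KO line 3 together, a smaller size with the call kept. That setting left WT lines 3 and 8, high in Xist, against KO lines 13 and 16, low in Xist. Genotype and Xist state cannot be told apart in it.

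Since Dcx lies on the X chromosome, its level was set beside the Xist state of each line. Among Xist-high lines, the library labelled KO line 3 was at 18.3 CPM and WT lines 3 and 8 at 0.988 and 0.659 CPM. In Xist-low lines, KO lines 13 and 16 were at 8.92 and 6.74 CPM and WT line 19 at 0.271 CPM. Within both states the KO-labelled lines were higher, and within both genotypes the Xist-high lines were higher. With Xist state as a covariate the log2 fold change of Dcx was 4.52 (edgeR adjusted p = 9.09e-06).

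Among the closest patterns to Dcx in tested genes with a proper name were those of Ryr3 and Gpr17. Likeness was the root mean square difference of log2 CPM over the 6 libraries after centring each gene, and came to 0.45 and 0.51. Ryr3, a calcium release channel of the endoplasmic reticulum, was at 4.56 to 11.8 CPM in WT and 77 to 137 CPM in the libraries labelled KO, again highest in line 3. Gpr17, a receptor of oligodendrocyte precursors, was at 0 to 0.101 CPM in WT and at 2.62 CPM in each of the KO-labelled libraries.

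Dclk1 and Dclk2, the kinase relatives of doublecortin, changed in opposite directions. Dclk2 (chromosome 3, 86786151 to 86920852) was at 398, 369 and 412 CPM in WT lines 3, 8 and 19 and at 779, 909 and 776 CPM in the libraries labelled KO, lines 3, 13 and 16. All 3 KO-labelled libraries were above all WT libraries, with little spread in either group, and the log2 fold change was 1.06 (SE 0.11, edgeR adjusted p = 1.61e-04). Dclk1 (chromosome 3, 55242364 to 55539068), which is also known from the spindles of dividing neural precursors, was at 1158, 1255 and 1057 CPM in WT. It was at 690.2, 467 and 398 CPM in the libraries labelled KO, all below WT, with the library labelled KO line 3 nearest to it. Its log2 fold change was -1.16 (SE 0.20, edgeR adjusted p = 0.00177).

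The ratio of the pair within a library does not depend on scaling. Dclk1 held 2.91, 3.4 and 2.56 times the counts of Dclk2 in WT lines 3, 8 and 19, and 0.886, 0.514 and 0.512 times in the libraries labelled KO. The ratio was thus lower in every KO-labelled library than in any WT library. An exact permutation test of 3 libraries against 3 cannot give a two-sided p below 0.1. RefSeq lists 2 windows of gene starts for Dclk1, the second at 55461478 to 55461777 inside the gene. Counts per gene do not separate the long form, with doublecortin domains, from short forms that are known to lack them.

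Per kilobase of annotated exon, Dclk1 made up 66.9% ± 3.12 of the family's summed level in WT, Dclk2 33.1% ± 3.13 and Dcx 0.0444% ± 0.0245 (SD, n = 3). In the libraries labelled KO the shares were 29.8% ± 6.63 for Dclk1, 69.4% ± 6.99 for Dclk2 and 0.778% ± 0.367 for Dcx (SD, n = 3). Even after its rise Dcx was therefore a minor member of the family.

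**Figure D2:**
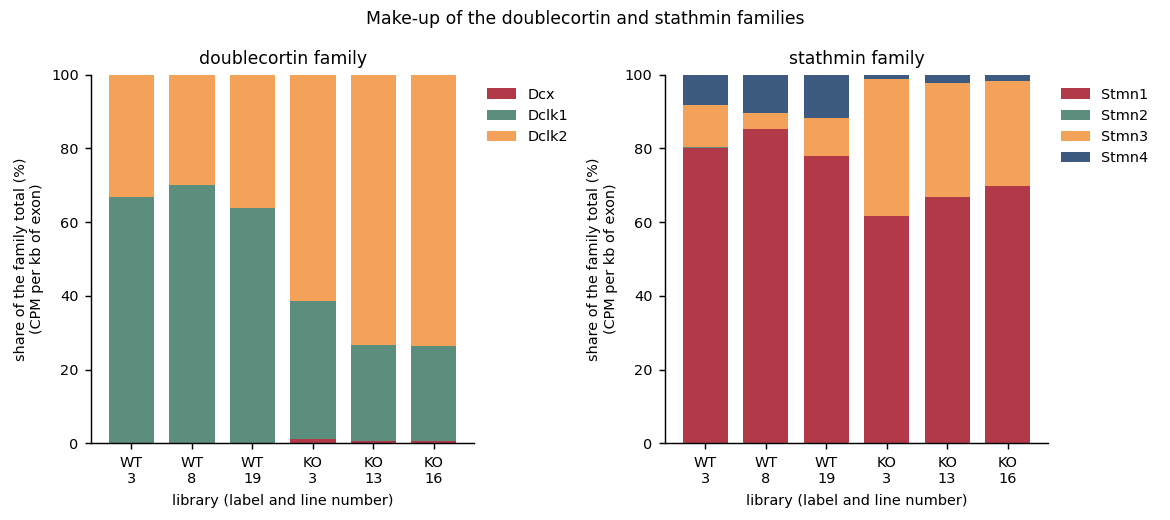
Share of each gene in the summed level (CPM per kilobase of exon, %) of the doublecortin family (left) and the stathmin family (right), in 1 bar per library, marked by its label and line number. Dclk2 takes the larger share in place of Dclk1 in the 3 KO-labelled libraries, and Stmn3 takes 28.5% to 36.9% there against 4.33% to 11.6% in WT.

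In the stathmin family, 2 genes rose, 1 fell and 1 was close to the limit of detection. Stmn3 (chromosome 2, 181306459 to 181314500), whose protein sits on the Golgi and on vesicles of neurons, was at 2.56, 0.861 and 1.9 CPM in WT lines 3, 8 and 19, from 70, 17 and 35 counts. It was at 12.2, 9.09 and 11.3 CPM in the libraries labelled KO, from 229, 215 and 264 counts. The libraries labelled KO lay close together and the WT libraries, although more spread in proportion, all lay below them. Means were 1.77 ± 0.856 and 10.9 ± 1.62 CPM (SD, n = 3 each), and the log2 fold change came to 2.58 (SE 0.31) at an edgeR adjusted p of 3.43e-04.

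Stmn4 (chromosome 14, 66344296 to 66361680), its close relative in neurons, went the other way. Its level was 3.04, 3.5 and 3.69 CPM in WT and 0.748, 1.23 and 1.12 CPM in the libraries labelled KO, or 220 and 69 counts over each group of 3. Every KO-labelled library was below every WT library, and the log2 fold change was -1.70 (SE 0.24, edgeR adjusted p = 7.76e-04). Counts of Stmn3 over those of Stmn4 were 0.843, 0.246 and 0.515 in WT lines 3, 8 and 19 and 16.4, 7.41 and 10.2 in the libraries labelled KO.

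Stmn1 (chromosome 4, 134468320 to 134473843), the stathmin of dividing cells, was at 29.9, 28.7 and 24.3 CPM in WT and at 34.7, 33.2 and 46.9 CPM in the libraries labelled KO. The groups did not overlap, but the gap between them was small beside the spread, and KO line 16 was the highest. Its log2 fold change was 0.47 (SE 0.16, edgeR adjusted p = 0.0374). The call was lost without WT line 3, 8 or 19 (adjusted p = 0.065, 0.0849 and 0.126) and without KO line 16 (adjusted p = 0.0965). Stmn2, a stathmin of neurons that is used as a marker of neuronal differentiation, had 1, 2 and 0 counts in WT lines 3, 8 and 19 and 2, 0 and 4 counts in the libraries labelled KO. At or near 3 counts a library, taken here as the detection floor and worth 0.11 to 0.163 CPM, no difference was detectable at this depth.

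Of the stathmin family's summed level per kilobase of exon, Stmn1 made up 81.1% ± 3.73 in WT and 66% ± 4.03 in the libraries labelled KO (SD, n = 3 each). Stmn3 made up 8.75% ± 3.88 and 32.1% ± 4.30, and Stmn4 10.1% ± 1.86 and 1.82% ± 0.582 (SD, n = 3 each). The neuronal stathmin with the larger share was thus Stmn3 in all 3 KO-labelled libraries. In WT the order of Stmn3 and Stmn4 differed from line to line.

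Tubb3 (chromosome 8, 123411424 to 123422015), the tubulin used to recognise neurons, did not pass the test. It was at 3.15, 2.38 and 2.33 CPM in WT lines 3, 8 and 19 and at 2.62, 3.38 and 3.78 CPM in the libraries labelled KO. The groups overlapped, since WT line 3 lay above the library labelled KO line 3. The log2 fold change was 0.31 (SE 0.22, edgeR adjusted p = 0.291). These levels rest on 43 to 88 counts a library. Its nearest patterns were those of Med27, Crcp and Rrp9, at a root mean square difference of 0.05, 0.06 and 0.07 log2 units over the 6 libraries. These are a subunit of the Mediator complex, a subunit of RNA polymerase III and a factor of ribosomal RNA processing. They were picked as the closest among the tested genes with a proper name, and at such counts of Tubb3 their order is uncertain. A shared role with Tubb3 was not tested.

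Mapt (chromosome 11, 104231390 to 104332090) did not pass either. Its level was 7.43, 5.52 and 9.27 CPM in WT and 5.13, 5.58 and 6.05 CPM in the libraries labelled KO. WT line 8 fell inside the range of the KO-labelled libraries. The log2 fold change was -0.40 (SE 0.20, edgeR adjusted p = 0.142), and with Xist state as a covariate it was -0.52 (adjusted p = 0.0451), which is past the threshold.

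Map2 (chromosome 1, 66175273 to 66442583) was at 979.5, 962 and 778 CPM in WT and at 1603, 1215 and 1048 CPM in the libraries labelled KO. The groups did not overlap, although WT line 3 and KO line 16 were close, and the library labelled KO line 3 was the highest. The log2 fold change was 0.51 (SE 0.17, edgeR adjusted p = 0.0424). The call was lost without WT line 3, 8 or 19 (adjusted p = 0.0655, 0.086 and 0.136), without KO line 13 (adjusted p = 0.0755) and without WT line 19 and the library labelled KO line 3 together (log2 fold change 0.22, adjusted p = 0.118).

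**Figure D3:**
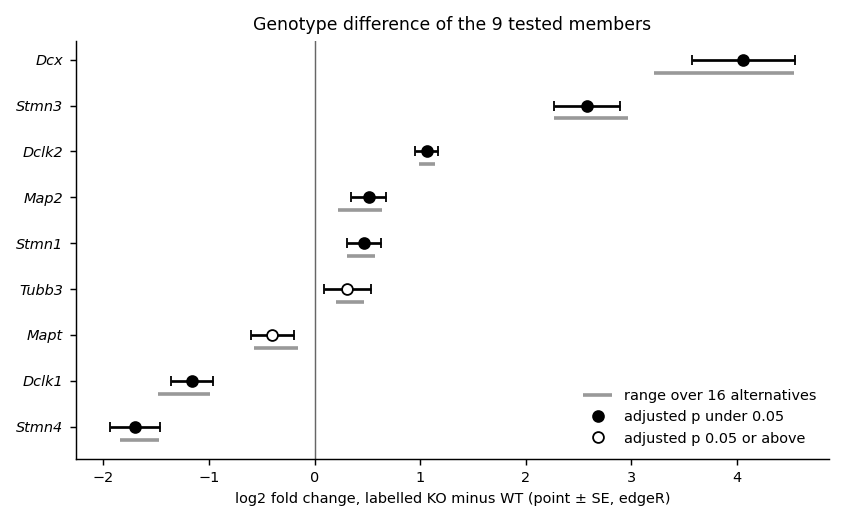
Log2 fold change of the 9 tested members, libraries labelled KO minus WT (horizontal axis), with the SE as a black bar and, in grey below it, the range over the 16 alternative analyses; filled points passed the threshold. Dcx and Stmn3 lie far to the right, Stmn4 and Dclk1 to the left, and no grey bar reaches 0.

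Per kilobase of annotated exon, the order of the 10 genes in WT was Dclk1 (75.6 ± 6.46 CPM per kb), Map2 (55.1 ± 6.79), Dclk2 (37.3 ± 2.11), Stmn1 (14.4 ± 1.53), Stmn4, Stmn3, Tubb3, Mapt, Dcx and Stmn2 (SD, n = 3). From Stmn4 to Mapt the means ran only from 1.78 to 0.984 CPM per kb. The ranges of Stmn4, Stmn3 and Tubb3 overlapped one another, and that of Stmn3 also overlapped that of Mapt. In the libraries labelled KO the order was Map2 (78.4 ± 17.3 CPM per kb), Dclk2 (77.8 ± 7.18), Dclk1 (33.9 ± 9.99), Stmn1 (19.9 ± 3.89), Stmn3 (9.58 ± 1.43), Tubb3, Dcx, Mapt, Stmn4 and Stmn2 (SD, n = 3). There Map2 and Dclk2 could not be separated beyond their ranges, nor could Dcx from Tubb3, Mapt or Stmn4. Exon lengths are from GENCODE, which may differ from the annotation behind the counts, and nuclear RNA holds unspliced transcripts, so this order is approximate. Whether counting used strand is not known, and short exon overlaps with other annotated genes touch Map2 (124 bases, antisense), Dclk1 (87 and 27 bases, opposite strand) and Stmn1 (66 bases, a miRNA).

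Other genes of the microtubule system were counted beside the members, from lists that share no gene with them. Of 14 tested tubulins, 6 rose and 3 fell, or 64.3% called beside 42.3% of all genes (median log2 fold change 0.35). The counts were the same without WT line 19 and the library labelled KO line 3, but there 54.2% of all genes were called. Tubb5, the main beta-tubulin of dividing cells, rose from 608 ± 128 to 1048 ± 142 CPM, Tubb4a by a log2 fold change of 1.10 and the centrosomal Tubg1 by 0.67, while Tubd1 had -0.60. Tubulin genes are alike in sequence, so reads may be split among them. Among 29 tested microtubule-associated proteins, 12 rose and 0 fell, or 41.4% called beside 42.3% of all genes (median 0.25). Dpysl5, a collapsin response mediator of growing neurites, rose from 4.7 ± 0.155 to 43.5 ± 0.908 CPM (SD, n = 3), or by 3.21 on the log2 scale. Tppp, which bundles microtubules in oligodendrocytes, and Map7d2, a kinesin cofactor, rose by log2 fold changes of 1.56 and 1.31. Without WT line 19 and the library labelled KO line 3, 17 of these 29 were called higher and 0 lower. That is 58.6%, beside 54.2% of all genes called in either direction in that setting. The share of all genes called higher was 25.9% there and 21.8% with all libraries.

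Of 32 tested enzymes that modify or cut tubulin, 5 rose and 4 fell, or 28.1% beside 42.3% of all genes, with a median of 0.05. Ttll7 and Ttll4, which add glutamates to tubulin, had log2 fold changes of 1.01 and 0.69, the detyrosinating enzyme Vash2 0.92, and the katanin relative Katnal2 -0.98. Without the same pair of libraries, 9 rose and 7 fell, or 50.0% beside 54.2% of all genes, so the gap to all genes was smaller. Of 19 regulators of nuclear migration and dynein, 6 rose and 2 fell, or 42.1% beside 42.3% of all genes (median 0.10). Without that pair 9 rose and 4 fell (68.4% called, beside 54.2% of all genes). Dab1, the adaptor of the reelin pathway in migrating neurons, rose from 18.6 ± 3.51 to 110.2 ± 39 CPM. Reln, the gene of the ligand of that pathway, fell from 79.7 ± 4.26 to 27.2 ± 8.26 CPM (log2 fold change -1.55). Dync1h1, the dynein heavy chain, and Pafah1b3 rose by 1.04 and 1.26. Of 26 kinases and phosphatases that act on these proteins, 8 rose and 3 fell, or 42.3%, the same share as all genes (median 0.17). Ppp2r2b and Camk2g were at 1.38 and 0.59 and Mapk10 and Ttbk2 at -0.81 and -0.84. Without that pair 10 rose and 5 fell (57.7% called, beside 54.2% of all genes). Among other genes with doublecortin domains, only Dcdc2b had enough counts to be tested, and it fell (log2 fold change -0.61).

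Markers of neurons moved in both directions. Of 28 tested markers of newborn and maturing neurons, 12 rose and 4 fell, with a median log2 fold change of 0.48. The share called was 57.1%, beside 42.3% of all tested genes. Without WT line 19 and the library labelled KO line 3, 12 rose and 6 fell, or 64.3% beside 54.2%. Their summed level was 1838 to 2019 CPM in WT and 1635 to 1808 CPM in the libraries labelled KO. Myt1, a zinc finger factor of neuronal and oligodendrocyte precursors, rose from 4.92 ± 1.46 to 48.3 ± 2.98 CPM. Ina, a neurofilament protein, and Snap25, of the synaptic release machinery, rose by log2 fold changes of 3.74 and 2.60. Ina had only 3, 3 and 1 counts in WT lines 3, 8 and 19, at or under the floor, so its fold change is imprecise. Rtn1, an abundant protein of the endoplasmic reticulum, and Ncam1, a cell adhesion protein, fell (log2 fold changes of -0.53 and -0.46). Levels of the neuronal transcription factors in the list, described here after their values were seen, differed widely between genes. Neurod2, Neurod4, Neurod6 and Nhlh2 were at 0 to 0.0846 CPM in every library and Neurod1 at 0.271 to 0.855 CPM, while Tbr1 was at 0.759 to 1.55 CPM, Myt1l at 9.96 to 17 CPM and Sox11 at 239 to 418 CPM. Of these, Tbr1, Myt1l and Sox11 were tested and did not pass (edgeR adjusted p = 0.245, 0.156 and 0.558).

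Of 7 tested proneural and intermediate progenitor genes, 3 rose and 2 fell, or 71.4% beside 42.3% of all genes (median 0.32). Without that pair of libraries 6 of 8 rose and 2 fell, where 54.2% of all genes were called. The Notch ligand genes Dll3 and Dll1 rose by log2 fold changes of 2.84 and 1.74, and the antiproliferative genes Btg2 and Gadd45g had -1.13 and -1.04. Neurog1 had no counts. Among 6 tested markers of GABAergic interneurons, 2 rose and 3 fell, or 83.3% beside 42.3% of all genes (median -0.88). The list's sum was 104 to 182 CPM in WT and 32.6 to 36.5 CPM in the libraries labelled KO. Most of that difference was in Gad2 (log2 fold change -4.23). In that list Lhx6 had no counts. Of 5 tested markers of glutamatergic neurons, 3 rose, or 60.0% beside 42.3% of all genes (median 0.69). Bcl11b led them at 1.65, and Slc17a6 had no counts.

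Markers of other cell classes were counted too. Over all tested genes 42.3% were called, or 54.2% without WT line 19 and the library labelled KO line 3. With all libraries the share was 70.0% for oligodendrocyte lineage markers, 63.6% for astrocyte markers and 28.6% for stem cell and radial glia markers. The oligodendrocyte lineage list rose in 6 of 10 tested genes and fell in 1 (median 0.77), and summed to 759 to 839.7 CPM in WT and 1199.8 to 1412 CPM in the libraries labelled KO. Pdgfra, Tnr and Gpr17 had log2 fold changes of 4.03, 2.49 and 5.30. Gpr17 was at 0 to 0.101 CPM in WT, under the floor of 3 counts, so its fold change is imprecise. Astrocyte markers fell in 6 of 11 and rose in 1 (median -1.39), with sums of 679.5 to 1051 and 345 to 478 CPM. Neural stem cell and radial glia markers rose in 2 of 14 and fell in 2 (median -0.03), with sums of 7527 to 8222 and 5783 to 6988 CPM. The part of these classes in the values of Dcx, Stmn3 and the other members was not tested. Microglial, endothelial, meningeal and erythroid lists summed to at most 52.9 CPM in any library. Among endothelial and mural genes 2 of 5 rose and 1 fell (median 0.16), and 1 fell without WT line 19 and the library labelled KO line 3. Of 3 meningeal genes 1 rose and 1 fell (median -0.12), and without that pair 1 rose and 2 fell. The microglial and the erythroid list each had 1 tested gene, which did not pass (log2 fold changes of 0.09 and 0.21). Tmem119, C1qa and C1qb of microglia and the globins Hbb-bs, Hba-a1 and Hba-a2 had no counts.

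**Figure D4:**
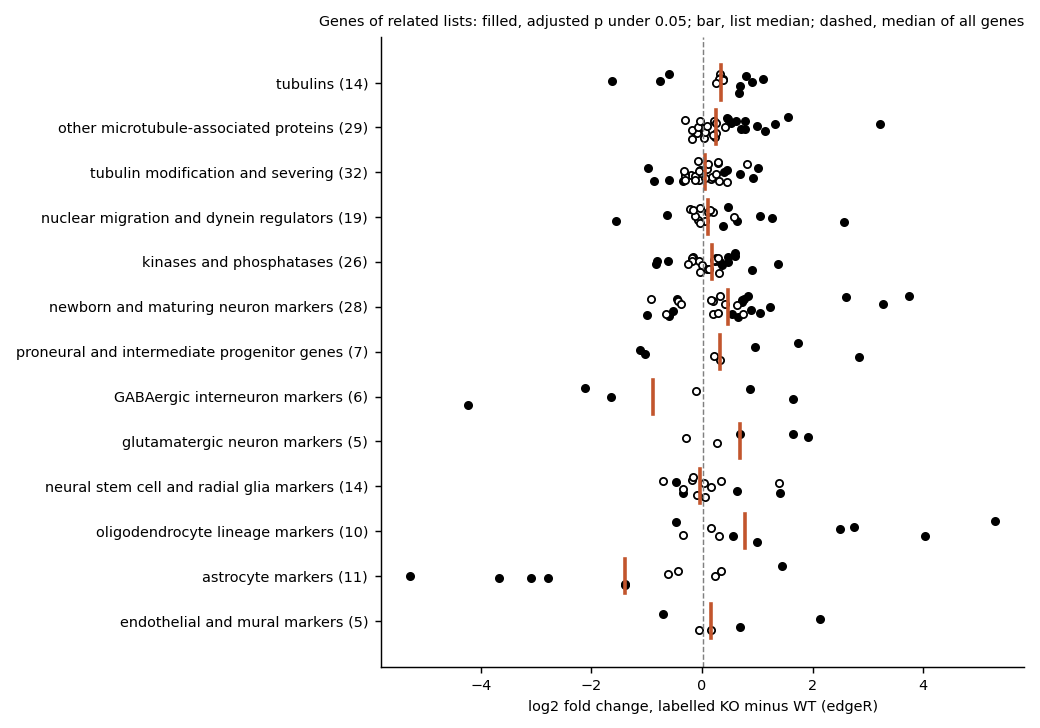
Log2 fold change (libraries labelled KO minus WT, horizontal axis) of each tested gene in the lists with at least 5 tested genes, with the number tested in brackets; filled points passed the threshold, the orange bar is the list's median and the dashed line the median of all tested genes (0.01). Points spread to both sides within most lists. The microtubule-associated proteins and the glutamatergic neuron markers have filled points only to the right. Vertical position within a row carries no value.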

How the data were processed

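Nuclear RNA of 6 lines was sequenced, and the deposited files, 1 per library, hold counts for 23337 gene symbols, per the file headers; whole numbers with unequal totals mark these as raw. The submitters' processing notes name cutadapt 1.14, STAR, HTSeq 0.7.2, DESeq2 and the build mm10; the annotation and strand setting were not stated in the sources used here. Genes passing filterByExpr were scaled by TMM and tested in edgeR 4.0.16 (R 4.3.3) with a robust quasi-likelihood fit over all 6 libraries, two-sided, Benjamini-Hochberg over 13925 genes, threshold 0.05; the SE came from the F statistic. Positions and exon lengths are from GENCODE M21 (GRCm38). Alternatives used other scalings and filters, limma 3.58.1 (voom), DESeq2 1.42.0, an Xist covariate (1000 CPM), fewer rows and fewer libraries. Named genes are the members, up to 4 genes per list by smallest p-value, the 3 most abundant genes of marker lists, and the 3 nearest patterns to Dcx and Tubb3; others are named where a marker had no counts or near none, and a few genes that the rule names are not reported here. The members and lists were chosen with earlier results of these data known. Floors of 3 counts cover counting error only.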

Additional observations from a re-analysis of the deposited data

How the results depend on the processing

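Over 16 alternatives, Dcx, Dclk1, Dclk2, Stmn3 and Stmn4 kept their direction and their call in each, with log2 fold changes of 3.21 to 4.54, -1.48 to -0.99, 0.99 or more, 2.27 to 2.97 and -1.84 to -1.47. Tubb3 stayed short of the threshold (0.20 to 0.47, adjusted p from 0.121 to 0.565). Stmn1 lost its call in 5 alternatives and Map2 in 6, and Mapt gained one with the Xist covariate. With Xist, Rn45s and small RNA rows left out, 3 members were called higher, Stmn1 (adjusted p = 0.0539) and Map2 (adjusted p = 0.0574) being lost. That setting moved the median log2 fold change of all genes by -0.06, and the other scalings moved it by at most 0.02 in size. When each library was left out in turn, 3 to 5 members were called higher and 2 lower, and the number of genes called higher ran from 1994 (without WT line 3) to 3666 (without KO line 3), against 3040. With no filter on low counts Stmn2 had an adjusted p of 0.574. No paired analysis was possible because the genotypes share only the line number 3. The list counts without WT line 19 and the library labelled KO line 3 were added after seeing the data. In them genotype cannot be told apart from Xist state. The 5 to 27 counts of Dcx in WT limit the precision of its fold change.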
